A study of Mus musculus with 38 samples.

Results

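Bone marrow-derived macrophages (BMDM) were cultured in direct contact with GL261 cells, a mouse glioma line, and the macrophages' RNA was sequenced after hypoxia or normoxia. The comparison rests on 6 of the 38 libraries of the series: 3 from hypoxia and 3 from normoxia, chosen by their labels alone. Both groups held wild-type primary mouse BMDM seeded with GL261 cells at 1 GL261 cell per macrophage and kept together for 16 h. The hypoxic group was held below 0.1% oxygen and the normoxic group at 21%, and both were fixed in 3% glyoxal. The GL261 cells carried the pEGFP-N1 plasmid, which encodes a green fluorescent protein. How macrophages were separated from tumour cells, and whether the libraries of a group came from different mice, is not given in the sources used here. The p-values therefore set differences against a spread between libraries that may be technical. That spread was estimated over these libraries and those of macrophages grown alone, described next. Macrophages grown alone, 2 libraries at each oxygen level and the same exposure, were the reference for what contact with glioma cells added. GL261 cells grown alone, also 2 libraries at each oxygen level, were used to recognise transcripts that could come from the partner.

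When oxygen is present, prolyl hydroxylases (the Egln enzymes) mark the alpha subunits of hypoxia-inducible factor (HIF) for destruction through the von Hippel-Lindau protein. When oxygen is scarce the alpha subunits persist, pair with Arnt and switch on genes for glucose uptake, glycolysis, blood vessel growth and oxygen sensing itself. Lack of oxygen also disturbs protein folding in the endoplasmic reticulum, where disulfide bond formation uses oxygen, and sterol synthesis, several steps of which use oxygen as a substrate. Macrophages gather in the poorly perfused regions of gliomas, where these programmes meet inflammatory, interferon and antigen-presentation genes.

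Total counts were between 9909367 and 15305604 per co-culture library, so that 3 counts corresponded to 0.196 to 0.303 CPM (counts per 1000000 counts of the library), a limit that covers counting error only. CPM values below are scaled by TMM factors, and 3 values in a row are those of libraries 1, 2 and 3. The macrophage genes Csf1r, Adgre1 and Lyz2 were high in every library, with Csf1r at 2976, 2833 and 2394 CPM in normoxia and 2834, 1859 and 2771 CPM in hypoxia. Of 8 neutrophil genes, S100a9, Ly6g, Mpo and Retnlg were at 0 counts in all 6 libraries. The 8 summed to 0.247 to 18.7 CPM in normoxia and 0.402 to 0.819 CPM in hypoxia. Values for S100a8, which was highest in normoxic library 2, are given below. All 12 macrophage markers were tested, and their summed level was 16418 to 20210.3 CPM in normoxia and 9450.3 to 16509.8 CPM in hypoxia. In bulk RNA, fewer cells of a type and less RNA per cell cannot be told apart.

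GL261 transcripts were present in all 6 co-culture libraries. Measured as the median level of GL261-specific genes relative to GL261 cells grown alone (190 genes in normoxia and 166 in hypoxia), they reached 1.34%, 2.16% and 3.71% in normoxia and 1.66%, 3.19% and 5.94% in hypoxia. Macrophages grown alone were at 0.0400% to 0.0537%. The groups, with means of 2.4% ± 1.2 and 3.6% ± 2.2 (SD, n = 3 each), overlapped, with an exact two-sided permutation p of 0.6, where 0.1 is the smallest p that 3 against 3 can give. In both groups library 1 was lowest and library 3 highest, and in each of the 3 pairs of same-numbered libraries the hypoxic share was above the normoxic one. A gene is called GL261-high below where GL261 cells had at least 4-fold the level of macrophages, each grown alone, in normoxia or in hypoxia; 2806 of the 14806 tested genes were. Multiplying the GL261 share by the level in GL261 cells grown alone gave an estimate of the part of a gene's signal that partner RNA could supply. Its median in hypoxia was 23.7% for GL261-high genes and 3.26% for the other 12000. The estimate is not an upper limit, because any change of GL261 expression in contact with macrophages is left out of it.

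**Figure D1:**
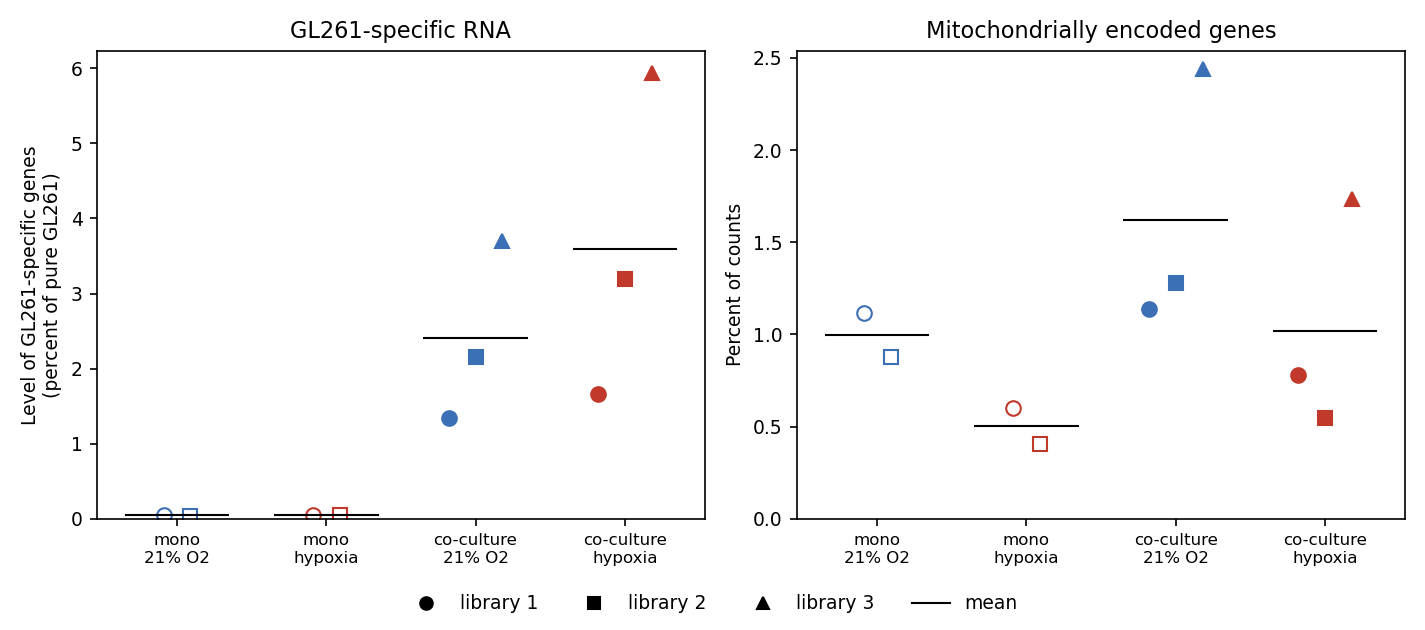
Left, median level of GL261-specific genes in each macrophage library as a percent of GL261 cells grown alone; right, percent of counts in mitochondrially encoded genes. Each symbol is 1 library (circle 1, square 2, triangle 3; open for monoculture, filled for co-culture) and bars are group means; co-culture libraries ran from 1.34% to 5.94% GL261, with library 3 highest in both groups.

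The co-culture libraries numbered 2 stood apart from the others in their group. Among 10153 genes with a mean of at least 5 CPM, normoxic library 2 had 46 genes at least 4-fold above both other normoxic libraries, and the other normoxic libraries had 0 such genes each. Hypoxic library 2 had 34, against 1 and 2 in the other hypoxic libraries. Inflammatory genes were among them: Saa3, an acute-phase protein, Lcn2, which sequesters bacterial siderophores, Cxcl3, Mmp9 and Il1a passed this limit in both groups. Hypoxic library 1 differed the other way, with 20 genes at least 4-fold below both others. Many results that rest on the libraries numbered 2 are given with and without both of them, a comparison chosen after the data had been seen.

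Hypoxia moved a large part of the transcriptome: 2590 of 14806 genes rose, which is 17.5% of those tested, and 2564 fell, which is 17.3%. At least 4-fold changes were more often rises (543 genes) than falls (130), and the median log2 fold change over all genes was 0.03. Of the 5154 changed genes, 4924 had hypoxic and normoxic libraries that did not overlap, while 6569 of all tested genes (44.4%) had such groups. With the libraries numbered 2 left out, 4780 genes passed, and 4103 of the 5154 passed in the same direction. Among GL261-high genes 427 (15.2%) rose and 401 (14.3%) fell, and 2163 of the other genes (18%) moved in each direction. The lists below differ from these shares by far for DNA replication, protein folding stress and HIF targets, and lie near them for lysosomal enzymes. The lipid-handling, checkpoint, class II, chemokine, arginine and cell-cycle inhibitor lists also lie much nearer to them than the replication list does.

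**Figure D2:**
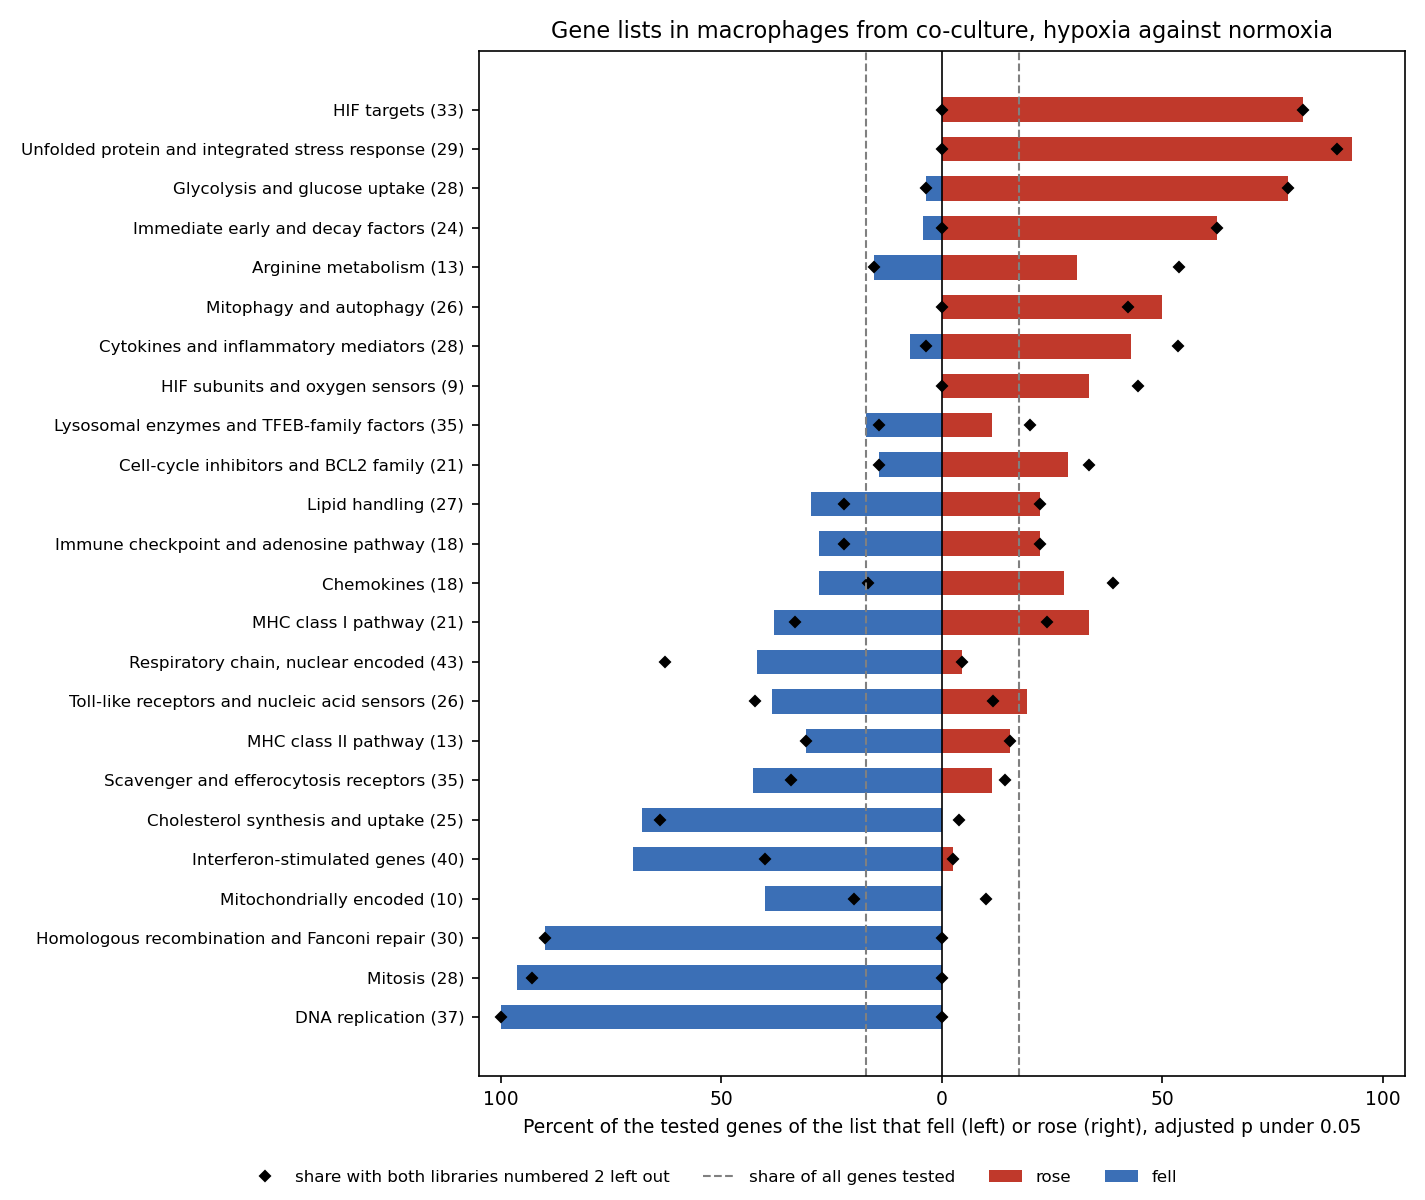
Percent of the tested genes of each list that rose (right) or fell (left) in macrophages from co-culture, hypoxia against normoxia, with the number tested in parentheses; diamonds give the share without both libraries numbered 2 and dashed lines the share over all genes (17.5% and 17.3%). DNA replication, mitosis and recombination lists lie almost wholly on the left, HIF targets and protein folding stress on the right, and the interferon list loses the most falls without the libraries numbered 2.

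HIF targets rose together. Passing means an adjusted p under 0.05 by edgeR's quasi-likelihood test. Of 33 tested, 27 rose and none fell, with a median log2 fold change of 2.55, and the counts were the same without the libraries numbered 2. Adm, which encodes the vasodilator adrenomedullin, was at 0.309, 1.52 and 0.771 CPM in normoxia and 113, 192 and 115 CPM in hypoxia. All 3 normoxic values lay below 2 CPM and every hypoxic value above 100 CPM, a log2 fold change of 7.33 ± 0.42 (standard error; adjusted p = 2.83e-06). Values in parentheses after other genes are likewise log2 fold changes, hypoxia over normoxia, with their standard errors and adjusted p-values. Vegfa, the main growth factor for blood vessels, was at 71.5, 104 and 48.8 CPM in normoxia and 858, 858 and 816 CPM in hypoxia. The 3 hypoxic libraries were within a narrow range and far above the normoxic ones (3.5 ± 0.25, adjusted p = 9.09e-06). Ero1l, an oxidase that forms disulfide bonds in the endoplasmic reticulum, was at 21.2, 29.2 and 25.8 CPM in normoxia and 693, 1866 and 1136 CPM in hypoxia, again with no overlap (5.60 ± 0.34, adjusted p = 4.03e-06). Ndrg1, a stress-response gene, rose by 5.16 on the log2 scale, and P4ha2, a collagen prolyl hydroxylase, by 4.98. Hilpda, an inhibitor of triglyceride breakdown at lipid droplets, rose by 4.40, Ankrd37 by 4.16 and Egln3, an oxygen sensor that is itself a HIF target, by 4.60. Of the exonic bases of Ankrd37, 26.4% lie under genes on the opposite strand, Ufsp2 and Lrp2bp, and the use of strand in counting is not stated.

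Outside the list, Angptl6, an angiopoietin-like secreted protein, rose by 5.40 and Ccrl2, a receptor that binds chemerin, by 4.26, and both are among the largest rises. Of the exonic bases of Angptl6, 16.8% lie under A230050P20Rik.

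The HIF targets that did not pass included Cxcr4 at 0.81 (adjusted p = 0.0732), Plin2 at 0.12, Pdgfb at -0.21 and the GL261-high gene Car9 at -0.35. Stc2 was at 0 counts in every normoxic library and at 0.602, 2.46 and 3.64 CPM in hypoxia, low in every library. Car12 was too low to be tested. Among the GL261-high targets, Ak4, a mitochondrial adenylate kinase, was at 4.82, 11.9 and 5.69 CPM in normoxia and 78.9, 111 and 92.6 CPM in hypoxia, of which partner RNA could supply 4.13% in hypoxia. Plod2, a collagen lysyl hydroxylase, rose by 3.22, and partner RNA could supply 29.8% of it in hypoxia.

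The alpha subunits themselves did not pass. Hif1a was at 31.9, 49.5 and 24.8 CPM in normoxia and 21.9, 34.5 and 21.9 CPM in hypoxia and did not pass (-0.44 ± 0.27, adjusted p = 0.227). A fit that paired libraries by number gave Hif1a an adjusted p of 0.0397. Epas1, which encodes HIF-2 alpha, was at 10.2, 8.59 and 9.35 CPM in normoxia and 8.53, 5.36 and 7.37 CPM in hypoxia with adjusted p = 0.131. Among 9 tested genes of HIF subunits and oxygen sensors 3 rose and none fell: Egln3, Egln1 at 64.9, 64.6 and 57.9 CPM in normoxia and 333, 457 and 332 CPM in hypoxia (2.58 ± 0.16, adjusted p = 4.03e-06) and Vhl, the von Hippel-Lindau gene, at 17.4, 18.8 and 16.2 CPM in normoxia and 27.8, 34.5 and 26.8 CPM in hypoxia (0.77 ± 0.14, adjusted p = 0.00193). Egln2 and Hif1an, the other oxygen-sensing hydroxylases, had log2 fold changes of 0.04 and 0.07. With those numbered 2 left out, Arnt passed as well, at 0.51 (adjusted p = 0.0356).

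**Figure D3:**
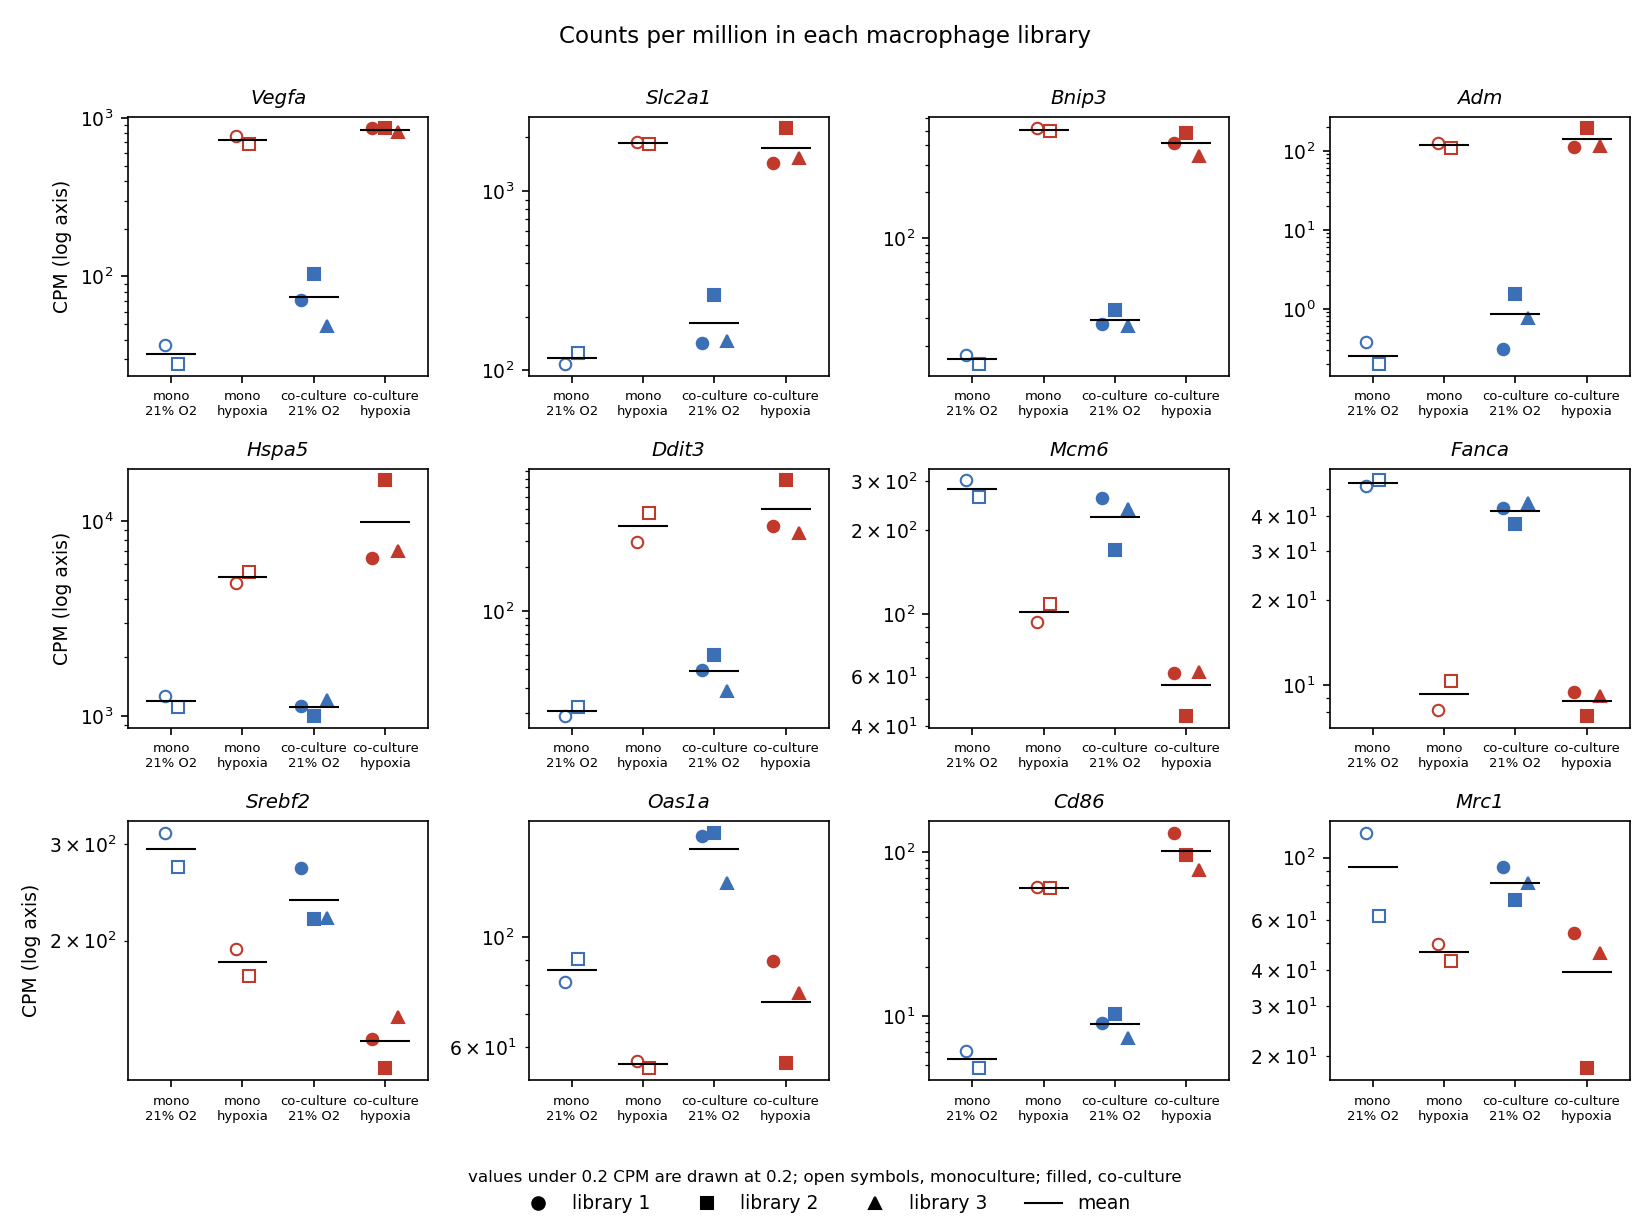
CPM on a log axis in each macrophage library for 12 genes; circles, squares and triangles are libraries 1, 2 and 3, open symbols are monocultures, filled symbols co-cultures, and bars are group means. Vegfa, Slc2a1, Bnip3, Adm, Hspa5, Ddit3 and Cd86 were higher in all 3 hypoxic co-culture libraries than in any normoxic one, and Mcm6, Fanca, Srebf2, Oas1a and Mrc1 were lower in all 3.

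To show the DNA at the starts of genes that rose the most, promoters were read from RefSeq (GRCm38.p6, mm10) as 250 bases before to 50 after the start of transcription. The core of the HIF-binding element is ACGTG or GCGTG, here searched on both strands. Of 134 genes named by rule, 104 had a window. The 3 with the largest rises among those whose window held the core are shown 5′ to 3′ along the gene. The core or its reverse complement is in capitals. Ero1l, which rose more than Ptgs2, had no window. The Adm window is at chr7:110627407-110627706 (plus strand), that of Derl3, a factor that draws misfolded proteins out of the endoplasmic reticulum, at chr10:75893148-75893447 (plus strand), and that of Ptgs2, the inducible prostaglandin synthase, at chr1:150099781-150100080 (plus strand). Adm held 2 matches, Derl3 and Ptgs2 held 3 each, of which 2 overlap as the palindrome CACGTG.
Adm: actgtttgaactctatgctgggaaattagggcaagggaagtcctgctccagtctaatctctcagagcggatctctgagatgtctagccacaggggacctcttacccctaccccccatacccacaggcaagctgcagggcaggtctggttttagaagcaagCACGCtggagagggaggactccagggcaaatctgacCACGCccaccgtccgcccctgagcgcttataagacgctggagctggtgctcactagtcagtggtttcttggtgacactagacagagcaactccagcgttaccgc
Derl3: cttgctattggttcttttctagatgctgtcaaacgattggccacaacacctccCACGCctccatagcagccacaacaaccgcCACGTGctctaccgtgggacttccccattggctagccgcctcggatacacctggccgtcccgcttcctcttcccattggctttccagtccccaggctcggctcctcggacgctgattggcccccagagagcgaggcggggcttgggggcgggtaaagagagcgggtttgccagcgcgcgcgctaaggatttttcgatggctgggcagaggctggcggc
Ptgs2: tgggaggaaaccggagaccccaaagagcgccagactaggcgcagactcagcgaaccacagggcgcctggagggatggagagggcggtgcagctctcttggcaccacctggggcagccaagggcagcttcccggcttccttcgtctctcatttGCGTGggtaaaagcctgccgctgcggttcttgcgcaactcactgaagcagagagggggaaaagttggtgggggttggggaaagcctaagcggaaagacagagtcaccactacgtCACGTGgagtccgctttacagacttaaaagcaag
Of 25 tested HIF targets with a window, 25 held the core. It is a short and common sequence: 66.6% of all 10411 tested genes with a window held it, as did 72.2% of the genes that rose, 65.7% of those that fell and 43.8% of all 32851 windows of the table. Among genes that rose at least 4-fold the share was 66.4%. A match is not a measured binding site.

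Derl3 was at 5.06, 4.76 and 2.89 CPM in normoxia and 178, 409 and 145 CPM in hypoxia, with no overlap between groups (5.82 ± 0.41, adjusted p = 8.86e-06). Ptgs2 was at 4.75, 23.5 and 2.6 CPM in normoxia and 83.8, 1162 and 143 CPM in hypoxia. All hypoxic libraries were above all normoxic ones, but hypoxic library 2 was far above the others of its group (5.47 ± 1.07, adjusted p = 0.00261, and 4.88 (adjusted p = 2.27e-05) without the libraries numbered 2).

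Genes of glucose uptake and glycolysis rose along most of the pathway. Of 28 genes, 22 rose and 1 fell, with a median of 1.72. Slc2a1, the glucose transporter GLUT1, was at 141, 262 and 146 CPM in normoxia and 1449, 2249 and 1544 CPM in hypoxia (3.25 ± 0.27, adjusted p = 1.8e-05). Hexokinase Hk2 rose by 2.83, Pfkp by 2.28, Gpi1 by 1.81 and the lactate exporter Slc16a3 by 2.43. Gys1 and Gbe1, which build and branch glycogen, rose by 2.93 and 3.09. Pdk1, which holds pyruvate back from the mitochondrion, was at 53.8, 58.8 and 65.2 CPM and 244, 200 and 216 CPM in the same order (1.89 ± 0.14, adjusted p = 1.12e-05). The pathway's most abundant gene, Pkm, was at 4067, 4150.2 and 4379 CPM in normoxia and 7214, 7617 and 6998 CPM in hypoxia, a smaller but non-overlapping rise (0.79 ± 0.12, adjusted p = 0.000634), and 17.8% of its 75-base words are shared with other loci. Pfkfb4 was the member that fell, at 58.9, 67.3 and 48.4 CPM in normoxia and 37.5, 28.1 and 33.2 CPM in hypoxia (-0.82 ± 0.15, adjusted p = 0.00188), while its relative Pfkfb3 rose by 1.89. In normoxic library 2, Pfkfb3 was at 89.1 CPM against 21.1 and 19.2 CPM in the others, and without the libraries numbered 2 its log2 fold change was 2.97 (adjusted p = 5.44e-06).

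Genes of the respiratory chain fell in part. Of 43 nuclear-encoded genes 18 fell and 2 rose, with a median of -0.35, and without the libraries numbered 2 the falls were 27. Leaving out normoxic library 3 left 10 falls, and leaving out hypoxic library 3 left 11. Atp5o, a subunit of ATP synthase, was at 33.8, 29.9 and 40.4 CPM in normoxia and 15.2, 18.8 and 16.7 CPM in hypoxia (-1.03 ± 0.15, adjusted p = 0.000487), and Cox6b1 of cytochrome oxidase at 149.9, 139 and 175 CPM in normoxia and 86.1, 95.7 and 77.3 CPM in hypoxia (-0.84 ± 0.13, adjusted p = 0.000856). Of the exonic bases of Atp5o, 47.9% lie under other genes, among them a same-strand gene with the same symbol. Of its 75-base words, 10.4% are shared with other loci, so its counts may not be its full level. The members that rose were Ndufa4l2 and Cox4i2, subunit forms known to be induced by hypoxia. Cox4i2 was at 0.988, 1.19 and 1.54 CPM in normoxia and 9.54, 2.38 and 8.98 CPM in hypoxia (2.49 ± 0.53, adjusted p = 0.00428), and Ndufa4l2 at 0.0617, 0.33 and 0.289 CPM in normoxia and 1.71, 1.79 and 2.88 CPM in hypoxia, low in every library. Of 10 mitochondrially encoded genes 4 fell, and 9 of the 10 were GL261-high. The share of counts in mitochondrially encoded genes was 1.14%, 1.28% and 2.44% in normoxia and 0.779%, 0.544% and 1.73% in hypoxia. Library 3 was highest in both groups, as it was for GL261 share, and without normoxic library 3 no member fell (0 of 10), while leaving out hypoxic library 1 or 2 left 2 falls. Without both libraries numbered 2, 2 members fell and 1 rose. With libraries paired by number 7 fell. With expected GL261 counts subtracted 3 members fell, and with the GL261 share as a covariate 7 did. For mt-Nd1 the log2 fold change was -1.69 with adjusted p = 0.0124, -1.63 (adjusted p = 0.0211) after subtraction and -2.04 (adjusted p = 0.00087) with the covariate.

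Mitophagy and autophagy genes rose in 13 of 26 cases, and none fell. Bnip3, a mitochondrial receptor for autophagy and a HIF target, was at 27.5, 34.2 and 26.8 CPM in normoxia and 418, 485 and 343 CPM in hypoxia (3.81 ± 0.18, adjusted p = 1.39e-06), and its relative Bnip3l at 49.5, 37.8 and 41.1 CPM in normoxia and 185, 223 and 164 CPM in hypoxia (2.16 ± 0.15, adjusted p = 9.09e-06). The exonic sequence of Bnip3 lies 22.3% under an antisense gene, and 11.4% of its 75-base words occur elsewhere. Sqstm1, the autophagy cargo receptor p62, was at 856, 782 and 558 CPM in normoxia and 2281, 5087 and 2128 CPM in hypoxia (2.11 ± 0.31, adjusted p = 0.000539). Pink1 rose by 1.85, Atg13 by 1.61 and Map1lc3b, the LC3 protein of autophagosome membranes, by 0.67. The core enzymes Atg5, Atg7 and Becn1 had log2 fold changes of 0.09, -0.16 and 0.11 and did not pass.

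The unfolded protein and integrated stress response rose in 27 of 29 genes and fell in none, with a median of 2.21. Hspa5, the chaperone BiP, was at 1132, 1001 and 1205 CPM in normoxia and 6454, 16152 and 7025 CPM in hypoxia. Hypoxic library 2 was the highest, and all hypoxic libraries lay above all normoxic ones (3.15 ± 0.32, adjusted p = 6.4e-05, and 2.52 without the libraries numbered 2). Trib3, a pseudokinase induced by Atf4 and Ddit3, was at 10.9, 15.8 and 10.3 CPM in normoxia and 379.6, 573 and 339 CPM in hypoxia (5.12 ± 0.27, adjusted p = 2.11e-06). It is GL261-high, and partner RNA could supply 2.35% of its hypoxic signal. Ddit3, the stress factor CHOP, was at 39.4, 49.7 and 28.6 CPM in normoxia and 380.4, 779 and 340.1 CPM in hypoxia (3.67 ± 0.35, adjusted p = 4.22e-05). Ppp1r15a, which removes the translation block of the stress response, was at 58.0, 62.0 and 58.6 CPM in normoxia and 602, 779 and 515 CPM in hypoxia (3.41 ± 0.20, adjusted p = 3.58e-06). Chaperones and folding enzymes rose with it: Dnajb9 by 3.72, Herpud1 by 3.48, Creld2 by 3.16, Pdia4 by 2.99 and Hyou1 by 2.56. Atf4 mRNA rose by 0.98 and Xbp1 by 0.44, although Xbp1 did not pass without the libraries numbered 2 (adjusted p = 0.123). Psat1 of serine synthesis and the cystine transporter subunit Slc7a11 did not pass, with log2 fold changes of -0.21 and 2.21, and Slc7a11 passed without the libraries numbered 2 at 2.76 (adjusted p = 0.00967). Without the libraries numbered 2, 26 members rose and the median was 1.75.

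Immediate early factors rose in 15 of 24 genes and fell in 1. Fosb, a partner in the AP-1 factor, was at 9.45, 4.49 and 11.2 CPM in normoxia and 589.6, 145 and 287 CPM in hypoxia (5.36 ± 0.51, adjusted p = 4.54e-05), Egr3 at 1.61, 0.727 and 2.22 CPM in normoxia and 59.5, 21.7 and 61.2 CPM in hypoxia (5.01 ± 0.45, adjusted p = 3.37e-05) and Klf4 at 31.2, 41.9 and 34.6 CPM in normoxia and 257, 178 and 236 CPM in hypoxia (2.64 ± 0.17, adjusted p = 6.11e-06). Here hypoxic library 2 was the lowest of its group, the reverse of inflammatory genes such as Saa3, Lcn2 and Cxcl3. Not every inflammatory gene was highest there, and Osm, given below, was also lowest in that library. Fos and Egr1, the best-known members, did not pass, with log2 fold changes of 0.69 and -0.39. Zfp36l2, which speeds mRNA decay, was the fall at -0.60 (adjusted p = 0.0159), and it did not pass without the libraries numbered 2 or without hypoxic library 3 (adjusted p = 0.0523 in both). With libraries paired by number 3 members fell.

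DNA replication genes fell in 37 of 37 cases, with or without the libraries numbered 2, and the median was -1.42. Mcm6, a subunit of the replicative helicase, was at 261, 169.7 and 238 CPM in normoxia and 61.9, 43.3 and 62.4 CPM in hypoxia (-2.0 ± 0.20, adjusted p = 5.62e-05). Rrm2, the ribonucleotide reductase subunit that supplies DNA building blocks, was at 169.5, 90.8 and 165 CPM in normoxia and 36.9, 24.9 and 30.1 CPM in hypoxia (-2.21 ± 0.24, adjusted p = 8.64e-05). Mcm5 had a log2 fold change of -2.08, Fen1 of -1.88 and Tk1 of -1.88, all falls. Pcna, the sliding clamp, fell less (374, 275 and 332 CPM in normoxia and 194, 187 and 141 CPM in hypoxia, -0.91 ± 0.16, adjusted p = 0.00137). Normoxic library 2 was the lowest normoxic library for all 6 of these genes. Of the 37, 12 are GL261-high: for Mcm2, at 103, 61.9 and 104 CPM in normoxia and 20.6, 23.8 and 30.5 CPM in hypoxia, partner RNA could supply 21.8% of the hypoxic signal.

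Homologous recombination and Fanconi repair genes fell in 27 of 30 cases, and again 27 without the libraries numbered 2. Fanca, of the Fanconi core complex, was at 42.7, 37.4 and 44.3 CPM in normoxia and 9.44, 7.74 and 9.15 CPM in hypoxia (-2.24 ± 0.15, adjusted p = 6.11e-06), and Rad54l, a motor of strand exchange, at 59.6, 45.6 and 65.5 CPM in normoxia and 18.6, 9.90 and 16.1 CPM in hypoxia (-1.94 ± 0.22, adjusted p = 0.000119). The falls of Brca1 and Fancd2 were -1.24 and -1.66 on the log2 scale, and both genes are GL261-high, with 27.7% and 25.3% of the hypoxic signal within what partner RNA could supply. Slx4 fell less, at -0.57, and Fancc and Mus81 did not pass, at 0.12 and 0.03. Of the 30 genes 16 are GL261-high, and 12 of the falls were among the members that are not GL261-high. Some exons overlap neighbours: 10.5% of the exonic bases of Fanca lie under Zfp276 and 15.4% of those of Rad54l under Lrrc41.

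Mitosis genes fell in 27 of 28 cases with a median of -1.33. Ccnb1, the mitotic cyclin B1, was at 107, 75.7 and 95.5 CPM in normoxia and 25.8, 24.1 and 29.7 CPM in hypoxia (-1.81 ± 0.17, adjusted p = 3.83e-05), with 18.9% of its 75-base words shared with other loci. Cdc20 was at 194, 136 and 167 CPM in normoxia and 58.1, 51.5 and 62.8 CPM in hypoxia (-1.52 ± 0.17, adjusted p = 0.000122) and Mki67, the proliferation marker, at 968, 694 and 649 CPM in normoxia and 504, 249.5 and 342 CPM in hypoxia (-1.08 ± 0.25, adjusted p = 0.00719). Anln, a GL261-high gene for which partner RNA could supply 70.3% of the hypoxic signal, did not pass (-0.31). The inhibitor Cdkn1b (p27) rose, at 54.1, 49.7 and 47.4 CPM in normoxia and 126, 114 and 132 CPM in hypoxia (1.30 ± 0.13, adjusted p = 5.15e-05), while Cdkn2c fell (238, 132 and 168 CPM in normoxia and 79.8, 42.3 and 67.5 CPM in hypoxia, -1.51 ± 0.26, adjusted p = 0.00136). Cdkn1a (p21), the most abundant inhibitor of the list, was at 886, 584 and 650.3 CPM in normoxia and 1014, 1159 and 709 CPM in hypoxia and did not pass (adjusted p = 0.114), but passed without hypoxic library 3 (0.62, adjusted p = 0.0304) or normoxic library 1 (0.62, adjusted p = 0.0499). In all, 6 of 21 inhibitors and BCL2-family genes rose and 3 fell, where 17.5% of all genes tested rose and 17.3% fell. Among BCL2-family genes, Bid fell, at -1.13, and Bcl2a1b rose by 2.38, with 68.4% of its 75-base words shared with other loci.

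Cholesterol synthesis and uptake genes fell in 17 of 25 cases and rose in none, with a median of -0.75. Cyp51, a demethylase that uses oxygen, was at 43.4, 34.4 and 46.8 CPM in normoxia and 12.2, 15 and 21.0 CPM in hypoxia (-1.37 ± 0.20, adjusted p = 0.000484) and is GL261-high, so that partner RNA could supply 42.6% of its hypoxic signal. Srebf2, the master activator of the pathway, was at 271, 219 and 220.2 CPM in normoxia and 132, 117 and 145 CPM in hypoxia (-0.85 ± 0.14, adjusted p = 0.0011). The exporters Abca1 and Abcg1 did not pass, at 0.47 and 0.23. Without the libraries numbered 2, Abca1 rose at 0.97 (adjusted p = 0.00734).

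Lipid-handling genes split, with 6 rises and 8 falls among 27, where 17.5% of all genes tested rose and 17.3% fell. Smpdl3b, a membrane phosphodiesterase that limits Toll-like receptor signals, was at 31.1, 25.4 and 28.4 CPM in normoxia and 2.81, 4.47 and 5.51 CPM in hypoxia (-2.72 ± 0.22, adjusted p = 1.74e-05). Nr1h3, the sterol-sensing receptor LXR alpha, was at 66.9, 90.7 and 122 CPM in normoxia and 16.2, 11.7 and 30.9 CPM in hypoxia (-2.25 ± 0.32, adjusted p = 0.00043). Hpgd, which breaks down prostaglandins, had the largest fall among the named genes, at 79.8, 39.6 and 48.2 CPM in normoxia and 13.7, 4.39 and 4.24 CPM in hypoxia (-2.94 ± 0.47, adjusted p = 0.000877). Plin3, a lipid-droplet coat protein, rose, at 137, 138 and 134 CPM in normoxia and 317, 297 and 255 CPM in hypoxia (1.09 ± 0.13, adjusted p = 0.000154), and Apoe, the most abundant member, was at 4659, 4626 and 4370.5 CPM in normoxia and 5204, 2505 and 4977 CPM in hypoxia and did not pass (adjusted p = 0.767). Other large falls were in Pcp4l1 (-2.59), Gna15 (-2.45), Rab3il1 (-2.41), Ms4a6b (-2.35), Pald1 (-2.34), Nxpe5 (-2.22), Ankle1 (-2.21) and the glucocorticoid-responsive gene Fkbp5 (-2.17).

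Interferon-stimulated genes were mostly lower in hypoxia. Of 40, 28 fell and 1 rose, with a median of -0.91. The number depended on the libraries numbered 2: without them 16 fell, and the median was -0.59. Oas1a, which makes the 2′-5′ oligoadenylate messenger against viral RNA, was at 160.2, 162 and 129 CPM in normoxia and 89.7, 55.8 and 77.0 CPM in hypoxia (-1.02 ± 0.17, adjusted p = 0.0012, and -0.81 (adjusted p = 0.00313) without the libraries numbered 2). Of its 75-base words, 47.6% are shared with other loci, its relative Oas1g among them. Ifit3b was at 18.2, 14.3 and 10.4 CPM in normoxia and 6.63, 3.13 and 3.05 CPM in hypoxia (-1.76 ± 0.37, adjusted p = 0.0037), Ifi35 at 100, 125 and 97.8 CPM in normoxia and 54.4, 40.0 and 50.8 CPM in hypoxia (-1.15 ± 0.16, adjusted p = 0.000349) and Bst2, the abundant tetherin, at 473, 469 and 480.1 CPM in normoxia and 345, 227 and 285 CPM in hypoxia (-0.73 ± 0.15, adjusted p = 0.00372). In all 4 the groups did not overlap. Ifit1 was at 36.2, 40.8 and 29.6 CPM in normoxia and 23.7, 11.3 and 19.6 CPM in hypoxia (-0.97 ± 0.28, adjusted p = 0.0213), and did not pass without the libraries numbered 2 (adjusted p = 0.115), nor did Irf7, Oas2 and Mx1 (adjusted p = 0.287, 0.201 and 0.0523). The exception was Isg20, an exonuclease, at 12, 11.4 and 6.17 CPM in normoxia and 27.1, 45.6 and 25.7 CPM in hypoxia (1.72 ± 0.28, adjusted p = 0.000901). Cxcl10, an interferon-induced chemokine, was at 41.0, 33.7 and 30.2 CPM in normoxia and 34.3, 37.2 and 67.8 CPM in hypoxia and did not pass (adjusted p = 0.249), with 26.8% of its hypoxic signal within what partner RNA could supply.

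Promoters of the interferon list are shown because many hold the interferon-response sequence, GAAA repeated after 2 bases of any kind, searched on both strands. The windows of the 2 falls with the lowest adjusted p that held it are those of Oas1a (chr5:120907476-120907775, minus strand) and Ifit3b (chr19:34607707-34608006, plus strand). They are printed 5′ to 3′ along the gene with each match in capitals. In Oas1a the 2 matches overlap, and in Ifit3b both lie on the other strand.
Oas1a: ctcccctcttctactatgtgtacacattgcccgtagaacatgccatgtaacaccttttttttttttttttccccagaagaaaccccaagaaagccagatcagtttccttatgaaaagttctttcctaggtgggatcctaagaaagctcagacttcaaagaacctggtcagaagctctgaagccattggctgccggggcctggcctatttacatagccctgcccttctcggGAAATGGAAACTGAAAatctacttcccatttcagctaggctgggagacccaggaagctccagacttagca
Ifit3b: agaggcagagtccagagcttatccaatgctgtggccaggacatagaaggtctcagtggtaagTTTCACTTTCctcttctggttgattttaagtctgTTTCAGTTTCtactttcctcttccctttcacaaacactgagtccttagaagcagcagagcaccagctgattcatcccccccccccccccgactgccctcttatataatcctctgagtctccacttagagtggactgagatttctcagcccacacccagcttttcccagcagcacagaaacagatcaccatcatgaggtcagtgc
Of 29 interferon-stimulated genes with a window 17 (58.6%) held the motif, against 3.96% of the tested genes. Among the 19 that fell and had a window, 10 (52.6%) held it, and it stood in 3.67% of all genes that rose and 4.35% of all that fell.

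In the list of Toll-like receptors and sensors 10 of 26 fell and 5 rose, and leaving out normoxic library 1 left 1 rise. Cgas, the cytosolic DNA sensor, was at 36.2, 29.9 and 33.5 CPM in normoxia and 12.4, 7.82 and 11.9 CPM in hypoxia (-1.64 ± 0.20, adjusted p = 0.000158), and Mavs, the adaptor for RNA sensors, at 58.0, 49.9 and 52.5 CPM in normoxia and 31.0, 21.9 and 20.9 CPM in hypoxia (-1.12 ± 0.16, adjusted p = 0.000421). The endosomal receptors Tlr3, Tlr7, Tlr8 and Tlr9 had log2 fold changes of -1.42, -0.90, -1.70 and -1.62, all falls, and the fall of Tlr9 did not pass without the libraries numbered 2 (adjusted p = 0.0921). The adaptor Ticam1 rose (41.4, 40.7 and 28.1 CPM in normoxia and 78.3, 98.2 and 61.0 CPM in hypoxia, 1.10 ± 0.21, adjusted p = 0.00199). Cd14, a co-receptor for lipopolysaccharide, was at 626, 1074 and 607 CPM in normoxia and 1273, 1229 and 1281 CPM in hypoxia (0.71 ± 0.22, adjusted p = 0.0286). Its adjusted p was 0.112 without normoxic library 1, 0.0978 without normoxic library 3 and 0.0609 without hypoxic library 3.

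Antigen-presentation genes did not move as 1 group. In the class I pathway 7 of 21 rose and 8 fell, and leaving out hypoxic library 2, normoxic library 3 or normoxic library 1 left 2, 3 and 4 rises. The peptide-loading chaperones Calr and Pdia3, which also belong to protein folding, rose by 1.38 and 1.46, while the immunoproteasome subunits Psmb8 and Psmb9 fell (179, 171 and 181 CPM in normoxia and 97.8, 108 and 84.6 CPM in hypoxia for Psmb8, -0.87 ± 0.12, adjusted p = 0.000463, and -0.80 for Psmb9). H2-K1, a classical class I heavy chain, was at 1856, 1959 and 1197 CPM in normoxia and 2472, 2805 and 2218 CPM in hypoxia (0.58 ± 0.18, adjusted p = 0.0306). That call was lost without normoxic library 3 (adjusted p = 0.071), hypoxic library 2 (0.0867) or hypoxic library 1 (0.0506). In the class II pathway 2 of 13 rose and 4 fell, where 17.5% of all genes tested rose and 17.3% fell. Cd74, the invariant chain, was at 122, 144 and 141 CPM in normoxia and 206, 259 and 338 CPM in hypoxia (0.98 ± 0.17, adjusted p = 0.00147), and H2-Ab1 at 30.4, 43.7 and 30.6 CPM in normoxia and 67.0, 178 and 82.4 CPM in hypoxia (1.65 ± 0.32, adjusted p = 0.00231). H2-Ab1 rose by 1.28 (adjusted p = 0.000397) without the libraries numbered 2. Its partner chain H2-Aa was at 17.4, 19.8 and 18.3 CPM in normoxia and 11.9, 12.4 and 18.6 CPM in hypoxia and did not pass, and neither did Ciita, the class II activator, at 2.65, 2.25 and 2.51 CPM in normoxia and 1.81, 2.01 and 3.98 CPM in hypoxia (adjusted p = 0.877). March1, a ligase that removes class II and Cd86 protein from the surface, fell (18.1, 21.1 and 12.2 CPM in normoxia and 4.42, 2.98 and 5.17 CPM in hypoxia, -2.04 ± 0.27, adjusted p = 0.000256).

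Of the co-stimulatory and checkpoint genes 4 of 18 rose and 5 fell, where 17.5% of all genes tested rose and 17.3% fell. Cd86, the ligand that activates T cells through CD28, was at 9.02, 10.3 and 7.33 CPM in normoxia and 132, 96.9 and 78.4 CPM in hypoxia, with all hypoxic values far above all normoxic ones (3.52 ± 0.21, adjusted p = 3.66e-06). Cd80, which binds the same receptor, fell (-0.79 (adjusted p = 0.0206)), but did not pass without the libraries numbered 2 (adjusted p = 0.0721). Tnfsf9, the ligand of 4-1BB, was at 21.2, 25.1 and 19.5 CPM in normoxia and 74.5, 63.3 and 82.6 CPM in hypoxia (1.74 ± 0.16, adjusted p = 3.41e-05). Cd274, which encodes PD-L1, was at 8.34, 35.0 and 6.55 CPM in normoxia and 40.1, 92.2 and 39.8 CPM in hypoxia: normoxic library 2 was close to the 2 lower hypoxic values (1.78 ± 0.57, adjusted p = 0.0315). Without both libraries numbered 2 its change was 2.40 (adjusted p = 0.000461), but its adjusted p was 0.124 without hypoxic library 2 alone, 0.104 without normoxic library 1 and 0.0915 without normoxic library 3. Lgals9, a galectin, and Adora2b, an adenosine receptor, fell, at -0.96 and -1.77. Pdcd1, Vsig4 and Ido1 were at or under the counting limit.

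Several inflammatory mediators depended on the libraries numbered 2. Arg1, which turns arginine into ornithine, was at 1.05, 188 and 1.06 CPM in normoxia and 106, 128 and 276 CPM in hypoxia. Normoxic library 2 held as much as the hypoxic libraries, while the other normoxic libraries were near 1 CPM, and the test over all 6 libraries did not pass (1.41 ± 1.30, adjusted p = 0.428). Without the libraries numbered 2 the log2 fold change was 7.48 (adjusted p = 0.00012), and without normoxic library 2 alone it was 7.31 (adjusted p = 0.000115). In monoculture Arg1 was at 0.219 and 1.32 CPM in normoxia and 179.7 and 97.3 CPM in hypoxia. Il1b, the inflammasome cytokine, was at 3.40, 259 and 3.57 CPM in normoxia and 55.1, 149 and 81.5 CPM in hypoxia, with the same pattern (0.10 ± 1.15, adjusted p = 0.955). Its log2 fold change was 4.28 (adjusted p = 2.27e-05) without the libraries numbered 2 and 4.78 (adjusted p = 0.000124) without normoxic library 2 alone. Nos2, the inducible nitric oxide synthase, was at 0.618, 23 and 0.868 CPM in normoxia and 43.2, 290.2 and 87.8 CPM in hypoxia. Its lowest hypoxic value was above the highest normoxic one, and it rose with all libraries (4.07 ± 1.05, adjusted p = 0.0117) and without those numbered 2, at 6.48 (adjusted p = 2.06e-05).

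**Figure D4:**
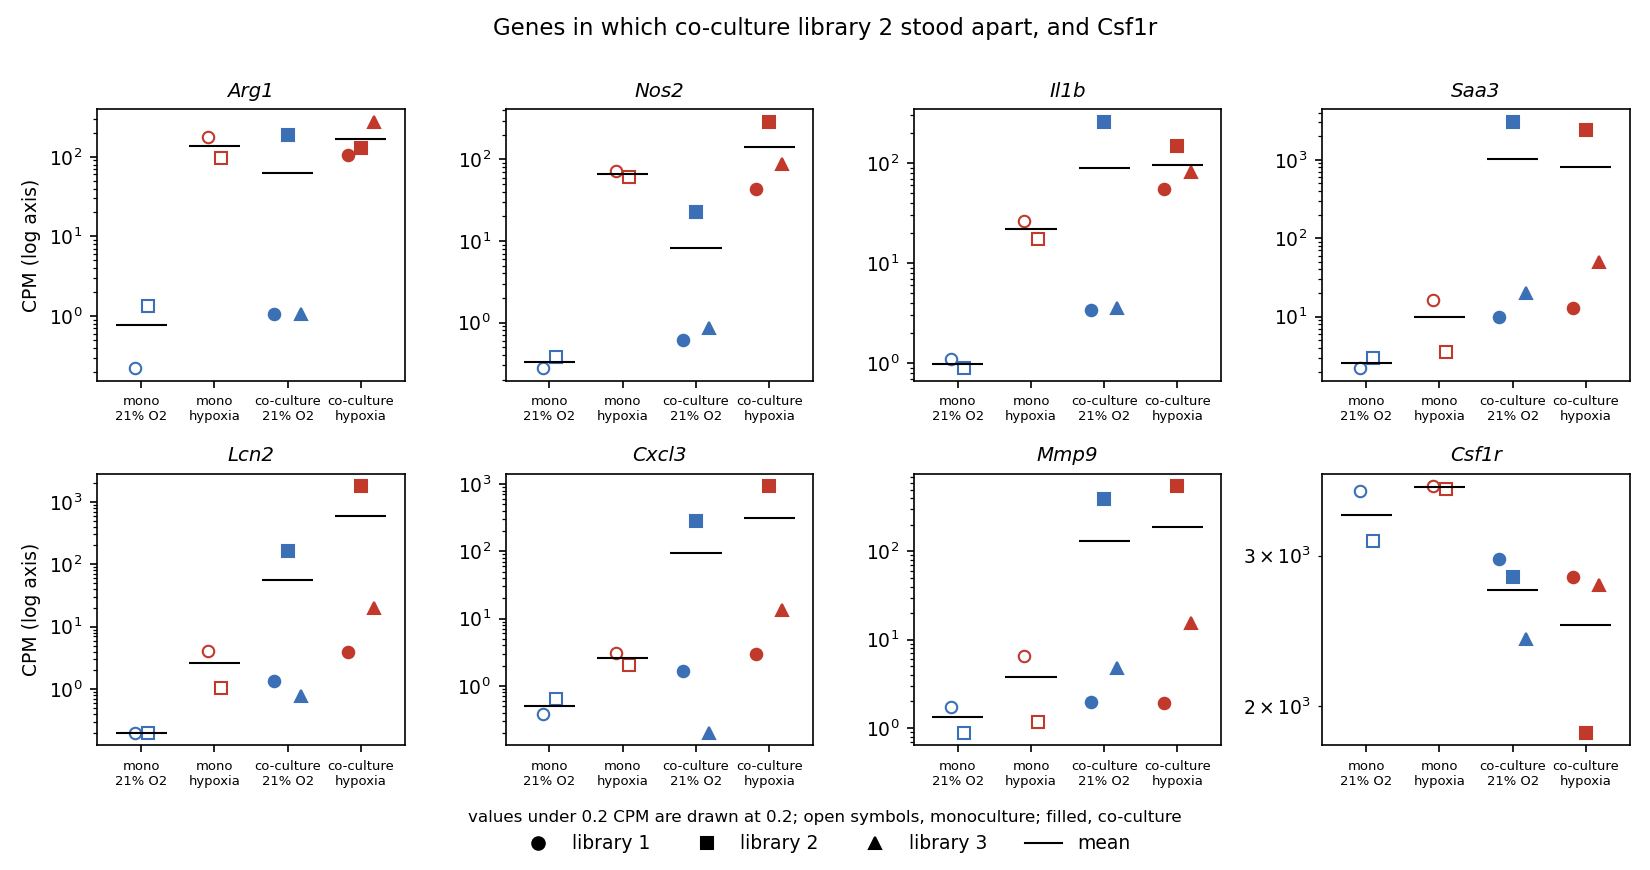
CPM on a log axis in each macrophage library for 7 genes in which library 2 of 1 or both co-culture groups stood apart, and for Csf1r; symbols are libraries 1 (circle), 2 (square) and 3 (triangle), open for monoculture and filled for co-culture, and bars are group means. Normoxic library 2 held 188 CPM Arg1 and 259 CPM Il1b against 1.05 and 1.06 CPM Arg1 and 3.40 and 3.57 CPM Il1b in the other normoxic co-cultures.

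Saa3 was at 9.88, 3052 and 20.1 CPM in normoxia and 12.8, 2396 and 50.1 CPM in hypoxia, and Lcn2 at 1.36, 166 and 0.771 CPM in normoxia and 3.92, 1788 and 20.1 CPM in hypoxia. In both, library 2 was far above the others of its group at either oxygen level, and neither gene passed (adjusted p = 0.908 and 0.202). Lcn2 rose when the libraries numbered 2 were left out, at 3.44 (adjusted p = 0.0137). S100a8, a neutrophil gene, was at 18.4 CPM in normoxic library 2 and under 1 CPM in the other 5. Dcn, a fibroblast gene, was at 8.92 CPM in normoxic library 2 and 19.6 CPM in hypoxic library 2 and under 0.5 CPM elsewhere. Col1a1, another fibroblast gene, was higher than Dcn in every library and highest in library 3 of both groups, as given below. The fibroblast markers summed to 86.8 to 236.3 CPM in normoxia, 86.6 to 637.3 CPM in hypoxia and 138.8 to 281.7 CPM in monoculture. The libraries numbered 2 had GL261 shares between those of the other libraries of their groups. Neither the part of such markers nor that of GL261 cells in the pattern was tested.

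Among 28 tested cytokines and mediators 12 rose and 2 fell, and 15 rose and 1 fell without the libraries numbered 2, where the median went from 0.52 to 1.46. With libraries paired by number 4 fell. Osm, a cytokine of the interleukin-6 family, was at 12.2, 21.7 and 9.54 CPM and 148, 65.2 and 82.2 CPM in normoxia and hypoxia (2.75 ± 0.34, adjusted p = 0.000176). Mif was at 188, 256 and 268 CPM in normoxia and 827, 865 and 671 CPM in hypoxia (1.73 ± 0.17, adjusted p = 4.86e-05), with 28.2% of its 75-base words shared with other loci. Tnfaip3, a brake on NF-kappaB, rose by 2.02 and Nlrp3 by 1.06. Il6 passed at 3.79 (adjusted p = 0.0469), with an adjusted p of up to 0.38 when 1 library was left out and 6.75 (adjusted p = 0.00104) without those numbered 2, and had 0.185, 12.8 and 0 CPM in normoxia and 7.63, 160.1 and 18.1 CPM in hypoxia. Alox5, which starts leukotriene synthesis, fell (18.7, 23.1 and 18.8 CPM in normoxia and 4.92, 5.66 and 12.1 CPM in hypoxia, -1.41 ± 0.34, adjusted p = 0.00855), but not without the libraries numbered 2 (adjusted p = 0.0652). Il18 fell, at 10.2, 8.46 and 8.29 CPM in normoxia and 4.52, 4.02 and 4.74 CPM in hypoxia (-1.02 ± 0.21, adjusted p = 0.00352). Tnf was at 85.0, 142 and 145 CPM in normoxia and 53.5, 200.2 and 89.9 CPM in hypoxia and did not pass (adjusted p = 0.856), and Spp1, the abundant osteopontin, changed by 0.26 (adjusted p = 0.202).

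Csf1, the growth factor that sustains macrophages, was at 9.57, 16.6 and 14.1 CPM in normoxia and 57.6, 511 and 177 CPM in hypoxia (4.21 ± 0.64, adjusted p = 0.000618), and hypoxic library 2 was the highest. Csf1 rose by 3.32 (adjusted p = 0.000981) without the libraries numbered 2. It is GL261-high, and partner RNA could supply 4.46% of its hypoxic signal. Its receptor Csf1r and the macrophage marker Adgre1 did not pass, with log2 fold changes of -0.14 and -0.14.

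In the arginine list 4 of 13 genes rose and 2 fell, where 17.5% of all genes tested rose and 17.3% fell. Without the libraries numbered 2, 7 rose. Odc1, which makes polyamines from ornithine, was at 49.3, 48.2 and 71.7 CPM in normoxia and 202, 106 and 181 CPM in hypoxia (1.53 ± 0.25, adjusted p = 0.000983), and Sms, a polyamine synthase, fell (-0.77).

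Chemokines divided evenly, with 5 rises and 5 falls among 18, where 17.5% of all genes tested rose and 17.3% fell. Leaving out hypoxic library 2 left 1 rise, normoxic library 1 or 3 left 2 rises, and normoxic library 2 left 3 falls. Ccl4 was at 42.7, 113 and 47.2 CPM in normoxia and 169, 183 and 142 CPM in hypoxia (1.28 ± 0.31, adjusted p = 0.00831). Cxcl2, a neutrophil attractant, was at 57.7, 439.6 and 53.9 CPM in normoxia and 573, 3318 and 1052 CPM in hypoxia (3.16 ± 0.84, adjusted p = 0.013). The adjusted p of Cxcl2 was 0.0505 without hypoxic library 2 alone. Both genes rose without both libraries numbered 2, Ccl4 by 1.78 (adjusted p = 6.88e-05) and Cxcl2 by 3.85 (adjusted p = 3.69e-05). Ccl9 fell (423, 560.1 and 537 CPM in normoxia and 231, 189 and 305 CPM in hypoxia, -1.07 ± 0.19, adjusted p = 0.00144) and so did Cxcl14 (129, 109 and 94.0 CPM in normoxia and 65.2, 31.5 and 55.6 CPM in hypoxia, -1.13 ± 0.23, adjusted p = 0.00315). Ccl2, the main attractant of monocytes, was at 61.8, 279 and 188 CPM in normoxia and 89.2, 46.5 and 136 CPM in hypoxia and did not pass (adjusted p = 0.159). It passed without normoxic library 1 (-1.39, adjusted p = 0.0276) and with no low-count filter. Its receptor Ccr2 fell (23.1, 18 and 10.4 CPM in normoxia and 9.34, 6.33 and 4.07 CPM in hypoxia, -1.40 ± 0.37, adjusted p = 0.0124), with an adjusted p of 0.059 without the libraries numbered 2. Pf4 had a log2 fold change of -0.02 with all libraries and 1.17 (adjusted p = 0.00113) without those numbered 2. Without the libraries numbered 2, 7 chemokines rose and 3 fell.

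Receptors for scavenging and for clearing dead cells fell in 15 of 35 cases and rose in 4, and 12 fell without the libraries numbered 2. Without normoxic library 1, 8 fell and 2 rose, and without normoxic library 3, 1 rose. Scarb1, the lipoprotein receptor, was at 131, 109.7 and 125 CPM in normoxia and 55.0, 45.3 and 62.4 CPM in hypoxia (-1.17 ± 0.14, adjusted p = 0.000161), and the integrin Itgav, a GL261-high gene, at 139.8, 117 and 118 CPM in normoxia and 64.8, 47.3 and 66.8 CPM in hypoxia (-1.06 ± 0.16, adjusted p = 0.000517). Msr1, a scavenger receptor, Mertk, a receptor for dying cells, and Fcgr1, an antibody receptor, fell, at -1.73, -1.09 and -1.45. Mrc1, the mannose receptor, was at 92.6, 71.0 and 81.2 CPM in normoxia and 54.4, 18.1 and 46.3 CPM in hypoxia (-1.05 ± 0.35, adjusted p = 0.0372), and its adjusted p was 0.0527 without hypoxic library 2, 0.0739 without normoxic library 3 and 0.088 without normoxic library 1. Clec7a, the beta-glucan receptor, rose (9.88, 5.88 and 4.34 CPM in normoxia and 19.9, 9.83 and 16.2 CPM in hypoxia, 1.17 ± 0.32, adjusted p = 0.0144). Clec4e was at 23.8, 73.5 and 45.9 CPM in normoxia and 43.8, 500.5 and 179 CPM in hypoxia (2.34 ± 0.67, adjusted p = 0.0196), with an adjusted p of 0.103 without hypoxic library 2, 0.072 without normoxic library 1 and 0.0609 without normoxic library 3. Lrp1, the most abundant of the list, was at 2905, 3032 and 2377 CPM in normoxia and 2908, 1421 and 2764 CPM in hypoxia and did not pass.

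Lysosomal genes were near the background, with 4 rises and 6 falls among 35, and 9 rises without hypoxic library 2. Ctsc, a protease that activates granule enzymes, was at 213, 190.1 and 236 CPM in normoxia and 70.4, 57.0 and 108 CPM in hypoxia (-1.44 ± 0.24, adjusted p = 0.00101), and the lysosomal regulator Tfeb at 102, 109 and 86.5 CPM in normoxia and 66.7, 39.4 and 56.0 CPM in hypoxia (-0.88 ± 0.18, adjusted p = 0.00336). Npc1, which exports cholesterol from lysosomes, rose (161, 145 and 123 CPM in normoxia and 221, 199 and 203 CPM in hypoxia, 0.54 ± 0.13, adjusted p = 0.00788). Lamp2 rose by 0.61 with all libraries and had an adjusted p of 0.0576 without those numbered 2. Ctsb, the most abundant member, changed by -0.24 (adjusted p = 0.278).

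Macrophages grown alone responded much as those from co-culture did. In monoculture 3542 genes passed (23.9%; 1967 higher and 1575 lower), and 2967 of them also passed in co-culture, which is 83.8% of the monoculture calls and 57.6% of the co-culture calls. Of these, 2966 moved the same way. Across 14806 genes, which are not independent replicates, the log2 fold changes of the 2 cultures, measured on different libraries, had a Pearson correlation of 0.76 and a Spearman correlation of 0.77. The gene of the 2967 that moved the opposite way was Mgst1, a glutathione transferase, at -0.52 in co-culture and 1.24 (adjusted p = 0.00255) in monoculture, named after its values were seen. Its co-culture fall was lost without the libraries numbered 2 (adjusted p = 0.115).

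The difference between the 2 responses was tested directly as an interaction. No gene passed by edgeR's quasi-likelihood test (0%), with a lowest adjusted p of 0.364 and 636 genes at an unadjusted p under 0.05. DESeq2 called 9 genes. Adm rose by 7.33 in co-culture and 8.77 in monoculture, where it was at 0.383 and 0.126 CPM in normoxia and 127 and 109 CPM in hypoxia. Vegfa rose by 3.5 and 4.48, Bnip3 by 3.81 and 4.95, Hspa5 by 3.15 and 2.11, and Cd86 by 3.52 and 3.48. The median over HIF targets was 2.55 in co-culture and 2.87 in monoculture, and over interferon-stimulated genes -0.91 and -0.82. Of the interferon list 12 fell in monoculture and 28 in co-culture, which does not show a difference, since monoculture had 2 libraries in a group. For Arg1 the monoculture change of 7.52 (adjusted p = 0.0344) was close to the co-culture change without the libraries numbered 2.

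**Figure D5:**
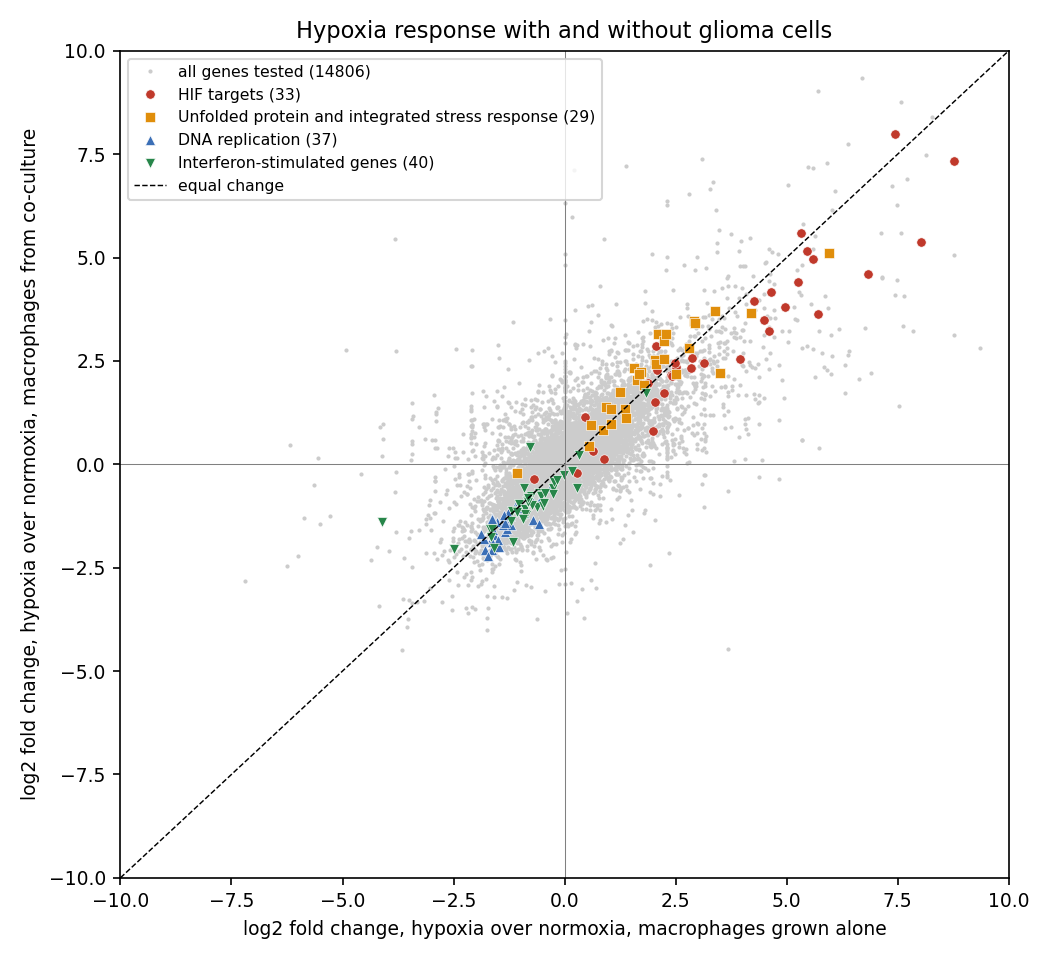
Log2 fold change, hypoxia over normoxia, of each of 14806 tested genes in macrophages grown alone (horizontal) and from co-culture (vertical); grey dots are all genes, coloured symbols 4 gene lists and the dashed line equal change. Most HIF targets and protein folding stress genes lie at the upper right and replication and most interferon genes at the lower left of both axes.

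Of the 12 macrophage markers 5 fell, among them Fcgr1, Mertk, Mrc1 and C1qa, and 1 rose (Cd14), with a median of -0.60. Over all genes tested 17.3% fell and 17.5% rose. C1qa, of complement, had an adjusted p of 0.0466 and of up to 0.116 when 1 library was left out. Of 10 tested glial and glioma markers 1 rose (Nes, 0.47) and 2 fell (Cspg4, -1.73, and Fabp7, -1.62). Without the libraries numbered 2, 0 rose and 2 fell, and with 1 library left out 0 to 2 rose and 2 fell. The summed level of the glial and glioma list was 218.9 to 310 CPM in normoxia and 163.1 to 295.6 CPM in hypoxia. Sox10, a glial factor high in GL261 cells, was at 22.6, 35.1 and 65.4 CPM in normoxia and 23.3, 45.5 and 86.5 CPM in hypoxia, highest in library 3 of both groups, as the GL261 share was. Of 6 tested fibroblast markers 0 passed, although Col1a1 was at 42.2, 71.8 and 130.4 CPM in normoxia and 51.1, 109 and 400 CPM in hypoxia, with hypoxic library 3 the highest. With libraries paired by number 2 fibroblast and 2 glial and glioma markers rose. Neutrophil, dendritic, T, B and mast cell lists had 1 or 2 tested genes each, and 0 passed; with libraries paired by number 1 dendritic cell gene rose and 1 B cell gene fell. In the endothelial list Esam, an adhesion molecule, was at 0.247, 0.33 and 0.964 CPM in normoxia and 38.4, 49.2 and 63.8 CPM in hypoxia (6.73 ± 0.38, adjusted p = 2.83e-06), and was as high in hypoxic monoculture (0.164 and 0.378 CPM in normoxia and 51.1 and 39.9 CPM in hypoxia). Pecam1, which leukocytes also express, rose by 1.81. The defining endothelial genes Tek and Cldn5 were at 0 counts in all 6 libraries and Cdh5 did not pass (-0.11).

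Several GL261-high genes had large changes. Aldh1l2, a mitochondrial folate enzyme, was at 3.03, 3.5 and 6.07 CPM in normoxia and 31.1, 188 and 80.1 CPM in hypoxia (4.61 ± 0.58, adjusted p = 0.000215), and partner RNA could supply 63.2% of the normoxic and 17.6% of the hypoxic signal. Its log2 fold change was 3.64 (adjusted p = 0.000732) without the libraries numbered 2. For the falls of Slfn9 (-1.88), Dkc1 of the telomerase complex (-1.83) and Fads2, a fatty acid desaturase (-1.81), partner RNA could supply 16.5%, 19.4% and 42.4% of the hypoxic signal. All 4 moved the same way in macrophages grown alone, by 4.63, -1.91, -1.64 and -2.15. After subtraction of the partner signal estimated from GL261 cells grown alone, 4918 of the 5154 changed genes passed in the same direction. With the GL261 share as a covariate 4747 did.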

How the data were processed

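The deposited values are whole-number counts of reads per Ensembl gene (55487 genes), made by the authors with Trimmomatic 0.36, STAR 2.6, SAMtools and HTSeq 0.9.1 on mm10, per the submitters' processing notes; the annotation and use of strand are not given in the sources used here. Libraries were poly(A)-selected and stranded, per the labels' protocols.

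One edgeR 4.0.16 model (R 4.3.3, limma 3.58.1) was fitted to the 10 macrophage libraries: TMM factors, low-count filter at defaults (minimum count 10, total 15), 6 residual degrees of freedom, common biological coefficient of variation 0.2217, quasi-likelihood test, Benjamini-Hochberg adjustment over 14806 genes, threshold 0.05. Same-numbered co-culture libraries deviated together over 7561 genes (correlations 0.517, 0.116 and 0.309), so replicate number, taken from the titles, was also fitted as a block. Standard errors were calculated back from the quasi-likelihood test, as the absolute log2 fold change over the square root of its F statistic. Replicates of a group differed by more than sampling noise. GL261-specific genes had at least 20 CPM and a 100-fold excess over macrophages, with 0.5 CPM added to both sides.

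Genes named are the 12 largest non-overlapping changes in each direction (mean log2 CPM of at least 4), 4 GL261-high ones in each direction, the 2 strongest calls in each direction and the most abundant member of each list, a panel, and others from the lists after their values were seen; some genes that the rule names are not reported here. Members and lists were chosen with earlier results of these data known. Positions and shared 75-base words come from the GRCm38 annotation. DESeq2 1.42.0, other filters, GL261 corrections and left-out libraries were tried; leaving out both libraries numbered 2 was added after seeing the data. The fitting was tested on simulated data.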

Additional observations from a re-analysis of the deposited data

Results flagged for a closer look

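Sat1, which acetylates polyamines for export or breakdown, was lower in hypoxia in co-culture and slightly higher in monoculture. In co-culture it was at 333, 329 and 290.1 CPM in normoxia and 247, 164 and 231 CPM in hypoxia, with every hypoxic library below every normoxic one (-0.57 ± 0.16, adjusted p = 0.0166). In a fit of the 6 co-culture libraries alone the call was lost (-0.56, adjusted p = 0.0541). In monoculture it was at 184 and 187 CPM in normoxia and 193 and 211 CPM in hypoxia, a log2 fold change of 0.12 (adjusted p = 0.693). The libraries of the 2 cultures moved in opposite directions, and the co-culture change minus the monoculture change was -0.69 on the log2 scale. The interaction test on this difference by edgeR's quasi-likelihood model across all genes did not pass (adjusted p = 0.9999), so the 2 responses of Sat1 are not shown to differ.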

How the results depend on the processing

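The co-culture comparison was recomputed under other settings, with 5154 calls by the edgeR fit and between 3953 (the 6 co-culture libraries alone) and 5779 (all 10 libraries with the replicate block) otherwise. DESeq2 gave 5397 calls, and leaving out 1 library at a time gave 4121 to 5170. Of the 5154 changed genes, 3464 passed in every fit that left out 1 library, so the others depended on at least 1 library. Without both libraries numbered 2 there were 4780. No called value changed direction under any alternative run. With the replicate block, which pairs libraries by number, 5098 of the 5154 changed genes passed in the same direction, and the block changed the call of Hif1a alone among genes named by rule (adjusted p = 0.0397), while counts in several lists moved. The interaction, 0 calls by edgeR, gave 9 by DESeq2 and 128 with no low-count filter, where Arg1, Ccl2 and Hif1a also passed in co-culture; the cause was not tested. Depth limits calls among low genes: 3 counts equal 0.196 to 0.303 CPM. GL261 share means were 2.77% and 4.57% with a 30-fold and 2.23% and 3.39% with a 300-fold specificity limit.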
